A study of Mus musculus with 45 samples.

Results

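Egg activation runs on calcium, and the 10 genes described here encode channels, pumps, a sensor and a calcium-dependent kinase linked to it. These are Itpr1, Trpm7, Trpv3, Cacna1h, Orai1, Stim1, Atp2a2, Atp2b1, Camk2g and Mcu. They were named for their roles, with earlier results of these data known, and are 10 of the 26214 genes in a table of mouse oocyte and embryo transcript levels. All 10 were found in it. The study asked what happens in oocytes when they express an H3.3 histone that carries methionine in place of lysine at residue 36 (K36M), a residue that is methylated in normal chromatin. RNA was measured in 6 libraries of pooled fully grown oocytes (FGOs, the full-sized oocytes of the ovary before meiotic maturation) and in single late two-cell embryos, of which 15 were used. Control two-cell replicate 4, set aside by the study for a technical problem, was left out unless stated.

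All FGO donors were females of 3 to 4 weeks of age on a hybrid C57BL/6 / 129 background. The 3 control libraries came from H3f3b K36M-flox/+ females without Cre, and the 3 K36M libraries from H3f3b K36M-flox/+; Gdf9-Cre females, in which the oocyte-specific Gdf9 promoter drives the recombinase. Both groups therefore carried the floxed allele. The 7 control and 8 K36M two-cell embryos were made by in vitro fertilization of superovulated oocytes of these genotypes with JF-1 sperm and were taken at 31 to 32 h after fertilization. The genotype is that of the oocyte donor, and the labels do not give the embryo's own. Nothing in the labels says that replicates came from separate females, so p-values measure the spread between these libraries, which may be technical.

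In a mouse egg, the sperm brings a phospholipase that makes inositol trisphosphate, which opens the type 1 receptor (Itpr1) on the endoplasmic reticulum and starts repeated calcium transients. The endoplasmic reticulum pump Atp2a2 (SERCA2) refills the store, and the plasma membrane pump Atp2b1 (PMCA1) pushes calcium out. Trpm7, Trpv3, the T-type channel Cacna1h and the store-operated pair of Stim1 and Orai1 are routes of calcium entry. How much each adds at fertilization was not measured here. Camk2g, the egg's calmodulin-dependent kinase, reads the transients and releases the metaphase arrest, and Mcu lets mitochondria take calcium up.

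Levels are given as TPM, a transcript level scaled to gene length and to the same sum in every library, so levels can be compared between genes. TPM does not keep the number of reads behind a value. The study lists total reads for each library, which were not used here. A TPM is a share of a library's RNA: less of a transcript per cell and more of all other transcripts cannot be told apart. Groups were compared with limma on log2(TPM + 1), where genes averaging under 1 TPM were left out, and a gene was called where its Benjamini-Hochberg adjusted p over all genes tested was under 0.05. A difference on this scale understates the change of a gene with a low TPM. Comparisons between FGOs and two-cell embryos carry other differences with them, among them pools against single embryos, more amplification cycles for embryos, superovulation of the egg donors and the JF-1 cross, and these cannot be told apart from stage.

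The libraries matched their labelled stages. The 8 maternal markers, which include egg coat genes and Gdf9, summed to 17760 ± 191 TPM (SD, n = 3) in control FGOs and 2299 ± 1125 TPM (SD, n = 7) in control two-cell embryos, and the 8 zygotic markers, such as the Zscan4 genes, to 62.0 ± 11.7 and 1147 ± 550 TPM. Between FGO genotypes the maternal sum was lower in every K36M library (15450.0 to 16980.0 TPM) than in every control library (17650.0 to 17980.0 TPM). Of the 8 maternal markers 0 passed the test, and 5 had an unadjusted limma p under 0.05, as did 10.5% of all genes. Mos went the other way, at 279 to 324 TPM in control and 365 to 443 TPM in K36M FGOs, while the others had lower means in K36M. Granulosa and cumulus markers were present at low levels, with sums of 160 to 254 TPM in FGOs and 104 to 622 TPM in embryos, of which Nr5a2, which embryos also express, was the largest contributor. Their FGO sums were 168 ± 11.8 TPM in control and 215 ± 48.6 TPM in K36M (SD, n = 3 each), with overlapping ranges. Stroma and blood markers summed to 24.1 to 146 TPM and sperm markers to 0 to 55.2 TPM over all 21 libraries. H3f3b, the floxed gene, was at 293 ± 24.6 TPM in control and 398 ± 20.8 TPM in K36M FGOs (SD, n = 3 each), a check of level only, since TPM does not separate the 2 alleles. Fewer genes were detected above 0 in the K36M two-cell embryos (10894 to 14879) than in the controls (12115 to 17329), and in FGOs 16707 to 18559 were. The part of that difference in any result below was not tested, and the 2 K36M embryos with fewer detected genes than any control embryo were also left out together.

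The genes lie on 8 chromosomes of GRCm38 (mm10), as annotated by RefSeq. Itpr1 is at chr6:108213083-108551116 on the plus strand, Trpm7 at chr2:126791558-126876261 on the minus strand, Trpv3 at chr11:73267489-73300368 on the plus strand and Cacna1h at chr17:25374285-25436334 on the minus strand. Orai1 at chr5:123015074-123030452 and Stim1 at chr7:102261514-102437319 are both on the plus strand. Atp2a2 is at chr5:122453513-122502225 on the minus strand, Atp2b1 at chr10:98914630-99026143 on the plus strand, Camk2g at chr14:20734873-20794157 on the minus strand and Mcu at chr10:59446984-59617409 on the minus strand. Exons of Cacna1h share 158 bases with exons of Tpsg1 and 303 bases with Gm33617 on the other strand, and exons of Itpr1 share 327 bases with the antisense transcript Gm44040. The strand setting of the authors' counting was not given in the sources used here, so part of the Cacna1h and Itpr1 values could come from these partners. No other gene of the 10 shared exon bases with a neighbour.

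RefSeq promoter windows, from 250 bases before to 50 bases after an annotated start, were at hand for 6 of the 10 genes, with 2 starts for Atp2b1. Windows are shown for the 2 genes that fell most from FGO to two-cell embryo, Atp2b1 and Trpv3, and for Stim1, which was higher in every control two-cell embryo, because these windows differ in composition. They are written 5′ to 3′ on the gene's strand, and capitals mark GC boxes (GGGCGG, or CCGCCC on the other strand), a motif bound by Sp-family factors; matches that overlap by a few bases are counted separately. The Atp2b1 windows are chr10:98914392-98914691 and chr10:98914902-98915201, the Stim1 window, at a start inside the gene's annotated span, is chr7:102267569-102267868 and the Trpv3 window is chr11:73267270-73267569, all on the plus strand.
Atp2b1 start 1: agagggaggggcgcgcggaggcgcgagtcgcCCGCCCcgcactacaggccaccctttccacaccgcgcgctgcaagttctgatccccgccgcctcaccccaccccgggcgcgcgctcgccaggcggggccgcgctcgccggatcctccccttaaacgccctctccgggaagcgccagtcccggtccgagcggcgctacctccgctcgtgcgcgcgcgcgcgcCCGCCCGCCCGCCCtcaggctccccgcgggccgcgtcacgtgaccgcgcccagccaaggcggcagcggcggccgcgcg
Atp2b1 start 2: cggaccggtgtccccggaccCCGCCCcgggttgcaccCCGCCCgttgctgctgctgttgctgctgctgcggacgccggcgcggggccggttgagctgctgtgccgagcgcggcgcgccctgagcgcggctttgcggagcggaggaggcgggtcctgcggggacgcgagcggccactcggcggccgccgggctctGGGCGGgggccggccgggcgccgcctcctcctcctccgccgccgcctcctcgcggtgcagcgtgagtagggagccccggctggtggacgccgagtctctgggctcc
Stim1: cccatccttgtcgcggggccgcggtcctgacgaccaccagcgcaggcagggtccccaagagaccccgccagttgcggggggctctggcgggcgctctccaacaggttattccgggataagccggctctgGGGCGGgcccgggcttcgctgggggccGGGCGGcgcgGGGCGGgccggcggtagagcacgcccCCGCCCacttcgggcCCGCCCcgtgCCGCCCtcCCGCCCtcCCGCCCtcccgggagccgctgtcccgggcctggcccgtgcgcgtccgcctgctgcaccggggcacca
Trpv3: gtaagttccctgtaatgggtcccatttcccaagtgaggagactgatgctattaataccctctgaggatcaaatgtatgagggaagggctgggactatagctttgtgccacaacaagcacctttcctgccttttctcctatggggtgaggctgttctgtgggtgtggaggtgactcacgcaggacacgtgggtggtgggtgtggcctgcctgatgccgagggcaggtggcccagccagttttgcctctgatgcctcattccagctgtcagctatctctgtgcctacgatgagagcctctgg

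Both Atp2b1 windows and the Stim1 window were CpG rich. The Atp2b1 windows held 54 and 45 CpG dinucleotides and the Stim1 window 38, against a median of 7 over 32851 windows of the same length, and the Trpv3 window held 4. GC boxes were found 4 and 3 times in the Atp2b1 windows, 8 times in the Stim1 window and 3 times in that of Orai1, and not in those of Trpv3, Trpm7 and Mcu. Of all windows, 35.7% held at least 1. The E-box CACGTG, present in 7.15% of all windows, was found in the first Atp2b1 window, in that of Trpv3 and 2 times in that of Trpm7, and CCAAT (either strand, 37.4% of all windows) in those of Orai1 and Mcu. TATAAA, in 13.6% of all windows, was in none of the 7. The windows shown were picked because they differ, so the contrast of Atp2b1 with Trpv3 is not a result. A letter match is a description, not a binding site.

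In control FGOs the kinase and the endoplasmic reticulum pump stood far above the other genes. Camk2g was at 409 ± 11.5 TPM and Atp2a2 at 379 ± 2.24 TPM (SD, n = 3), above 98.6% and 98.4% of all genes in the table. Mcu (141 ± 14.7 TPM), Itpr1 (137 ± 1.58 TPM), Atp2b1 (125 ± 7.1 TPM) and Trpm7 (115 ± 17.2 TPM) formed a middle group, in which the ranges of Mcu and Itpr1 overlapped, as did those of Atp2b1 and Trpm7. Orai1 (60.0 ± 10.9 TPM), Cacna1h (37.9 ± 1.01 TPM), Trpv3 (14.7 ± 2.44 TPM) and Stim1 (3.78 ± 1.27 TPM) followed in that order, each without overlap with its neighbour. In K36M FGOs the order by mean was the same but for Atp2b1 and Itpr1, which exchanged places. There the neighbours whose ranges overlapped were Camk2g and Atp2a2, Mcu and Atp2b1, Atp2b1 and Itpr1, and Orai1 and Cacna1h.

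In two-cell embryos Atp2a2 was alone at the top, at 462 ± 50.4 TPM in control (SD, n = 7) and 424 ± 70.2 TPM in K36M embryos (SD, n = 8). Camk2g was second in both, at 184 ± 70.5 and 161 ± 55.0 TPM, and its range overlapped that of the next gene. Trpv3 was last, at 2.85 ± 3.34 and 1.41 ± 2.24 TPM. In control embryos every other pair of neighbours overlapped except Stim1 and Trpv3, and in K36M embryos every other pair did. Summed over the 10 genes, the level was 1423 ± 23.4 TPM in control FGOs, 1360 ± 21.8 TPM in K36M FGOs, 1099 ± 147 TPM in control and 983 ± 116 TPM in K36M embryos.

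**Figure D1:**
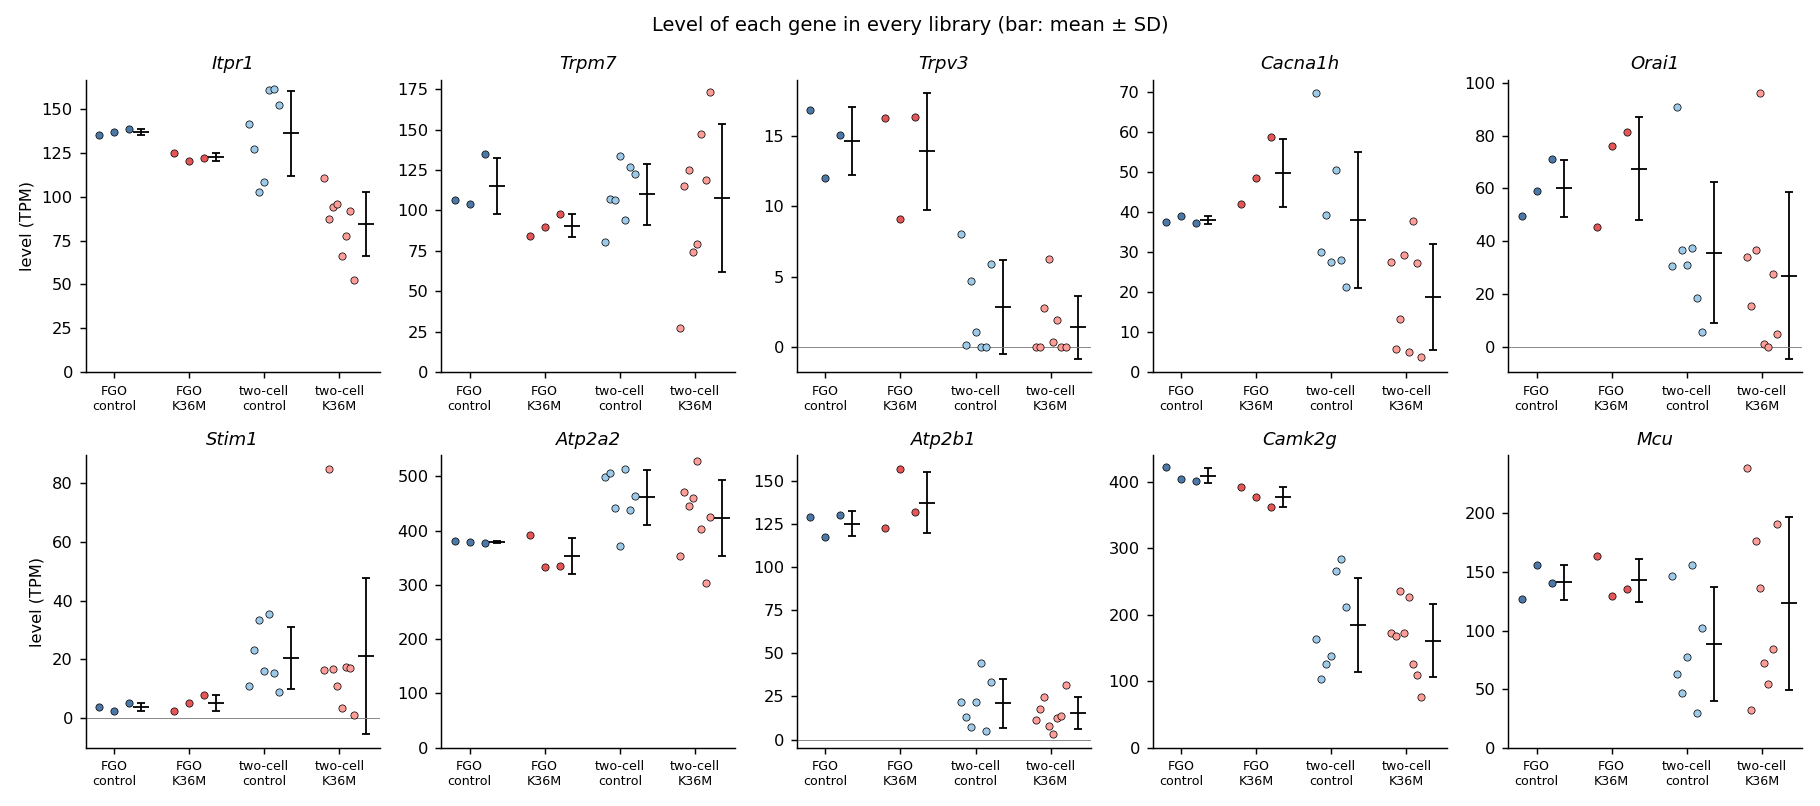
Level of each gene in TPM (y axis, linear, one panel per gene) in every library of the 4 groups (x axis), with the mean ± SD beside the points; SD bars that reach below 0 reflect skewed values. Atp2b1 and Camk2g drop from FGOs to two-cell embryos in both genotypes, and for every gene the spread relative to the mean is larger among single embryos than among FGO pools of the same genotype.

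Itpr1, the release channel, had the lowest p of the 10 between embryos of the 2 genotypes, but it did not pass the test across genes. In control two-cell embryos it ranged from 102.5 to 161 TPM with a median of 141 TPM. In K36M embryos it ranged from 52.6 to 111 TPM with a median of 89.8 TPM. The groups overlapped through 1 embryo: 7 of the 8 K36M embryos lay below every control embryo. The difference was -0.69 on the log2 scale (SE 0.29, 95% interval -1.29 to -0.10, unadjusted p = 0.024, limma adjusted p = 0.589). An exact permutation test of this gene alone, two-sided, gave p = 0.000932, a value that 32 of the 17362 genes tested reached, and 0.481 after adjustment over them. Without the 2 K36M embryos with the fewest detected genes the difference was -0.60 and the exact permutation p = 0.0035.

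Itpr1 was also lower in K36M FGOs, by a small step. The 3 control libraries read 136, 137 and 139 TPM, and the 3 K36M libraries 120.2, 122 and 125 TPM. The groups did not overlap, and the difference was -0.16 (SE 0.081, limma adjusted p = 0.515). With 3 against 3 libraries the exact permutation test cannot go below 0.1, the value it gave.

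From FGO to two-cell embryo, Itpr1 did not pass the test in either genotype. The control difference was -0.03 (SE 0.28, 95% interval -0.61 to 0.55), and -0.35 under median-of-ratios scaling, and that in K36M was -0.56 (SE 0.28, adjusted p = 0.134), with all 8 K36M embryos below the 3 K36M FGO libraries. The K36M difference passed under 2 of 32 alternatives, median-of-ratios scaling (-0.73, adjusted p = 0.043) and array weights (-0.50, adjusted p = 0.0218). The test of the difference between these stage effects gave -0.53 (SE 0.39, unadjusted p = 0.189). Itpr2, another receptor for inositol trisphosphate, fell from 57.7 ± 4.24 TPM to 12.9 ± 6.73 TPM in controls (log2 difference -2.21, limma adjusted p = 0.00938). Itpr1 accordingly made up 69.6% ± 1.48 (SD) of the TPM of the 3 receptor genes in control FGOs and 84.3% ± 4.97 in control embryos. In K36M its share was 67.6% to 68.8% in FGOs and 65.1% to 94.1% in embryos, with overlapping ranges.

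Trpm7, a channel fused to a kinase that lets calcium and magnesium into the cell, gave no call in any comparison. Its control FGO libraries read 107, 104 and 135 TPM and its K36M FGO libraries 83.9, 90.02 and 97.9 TPM, so that all 3 K36M values lay below the controls. The difference was -0.33 (SE 0.12, unadjusted p = 0.025, limma adjusted p = 0.428). Control two-cell embryos ranged from 80.7 to 133 TPM with a median of 107 TPM, and K36M embryos from 27.2 to 174 TPM with a median of 117 TPM. The K36M range enclosed that of the controls. Trpm7 made up 96.6% of the summed TPM of Trpm7 and its close relative Trpm6 in control FGOs and 99.4% in control embryos.

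Trpv3, a channel that opens to warmth and carries strontium as well as calcium into eggs, was low in FGOs and near the floor in embryos. It read 16.9, 12.0 and 15.1 TPM in control FGOs and 16.3, 9.11 and 16.4 TPM in K36M FGOs, with overlapping ranges and a difference of -0.10 (SE 0.26, limma adjusted p = 0.913). In embryos the control range was 0 to 8.07 TPM with a median of 1.1 TPM, and the K36M range 0 to 6.28 TPM with a median of 0.168 TPM. It was listed at 0 in 2 of 7 control and 4 of 8 K36M embryos. All embryos lay below all FGO libraries of their genotype. It fell in both genotypes, with a log2 difference of -2.56 in controls (SE 0.83, limma adjusted p = 0.024) and -3.01 in K36M (SE 0.81, adjusted p = 0.00669). The control call was kept in 26 of 31 alternatives. Among those that lost it were leaving out any 1 of the 3 control FGO libraries (adjusted p of 0.0672 to 0.0961) and a pseudocount of 0.1 (adjusted p = 0.0861). The K36M call was kept in all 32 alternatives.

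Cacna1h, the pore of the T-type voltage-gated channel, was the 1 gene of the 10 whose difference between genotypes pointed up in FGOs and down in embryos with an unadjusted p under 0.05 in both. Control FGOs read 37.5, 39.1 and 37.2 TPM and K36M FGOs 41.9, 48.5 and 58.8 TPM, without overlap (difference 0.37, SE 0.15, unadjusted p = 0.033, limma adjusted p = 0.438). In two-cell embryos the controls ranged from 21.3 to 69.7 TPM with a median of 29.9 TPM. The K36M embryos ranged from 3.78 to 37.7 TPM with a median of 20.3 TPM, 4 of the 8 below every control. That difference was -1.27 (SE 0.57, unadjusted p = 0.037, limma adjusted p = 0.609, exact permutation p = 0.0242). It shrank to -0.80, with an exact permutation p of 0.0909, without the 2 K36M embryos with the fewest detected genes.

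Across stages, Cacna1h fell by 1.74 in K36M (SE 0.61, limma adjusted p = 0.034), with all 8 embryos below the 3 FGO libraries. In controls the difference was -0.10 (SE 0.62, 95% interval -1.39 to 1.19), and the interaction of genotype and stage, -1.64, did not pass (SE 0.87, unadjusted p = 0.073, limma adjusted p = 1.0), so a genotype effect on the stage difference was not shown. The K36M call was lost when only those 2 groups were fitted (adjusted p = 0.107), when any 1 of the 3 K36M FGO libraries or K36M embryo replicate 2 was left out (adjusted p of 0.0508 to 0.134), and without the 2 K36M embryos with the fewest detected genes (adjusted p = 0.075). The relatives Cacna1g and Cacna1i, pores of the other T-type channels, were lower than Cacna1h in mean TPM in each of the 4 groups. Cacna1h made up 76.4% of the summed TPM of the 3 genes in control FGOs and 73.8% in control embryos. In K36M it made up 77.8% in FGOs and 61.9% in embryos, where single embryos ranged from 13.1% to 87.9%.

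Of the store-operated pair, Stim1, the calcium sensor of the endoplasmic reticulum, read 3.72, 2.54 and 5.07 TPM in control FGOs and 8.96 to 35.5 TPM, with a median of 16.1 TPM, in control two-cell embryos. All 7 embryos lay above all 3 FGO libraries. The difference was 2.05 (SE 0.81, a ratio of 4.15 on the TPM + 1 scale, limma adjusted p = 0.0641), just over the threshold. It passed in 6 of 31 alternatives, and its adjusted p ranged from 0.000566 to 0.206 over them. The exact permutation p was 0.0167, the smallest that 7 against 3 libraries allow.

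In K36M the Stim1 ranges overlapped: 2.47, 5.13 and 7.92 TPM in FGOs and 1.16 to 85.02 TPM, with a median of 16.6 TPM, in embryos (difference 1.22, SE 0.80, adjusted p = 0.277). Stim2, a second sensor that responds to smaller drops of store calcium, was called lower in both genotypes. It fell from 57.3 ± 4.13 TPM to 8.51 ± 7.64 TPM in controls (log2 difference -3.31, limma adjusted p = 0.0139) and from 57.9 ± 2.49 TPM to 5.17 ± 5.24 TPM in K36M (log2 difference -3.85, adjusted p = 0.00365). Stim1 thus held 4.58% to 8.08% of the STIM transcripts by TPM in control FGOs and 55.4% to 100% in control embryos. In K36M these shares were 3.98% to 11.8% and 20.6% to 100%, again without overlap between the stages.

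Orai1, the pore that STIM proteins open, varied widely between single embryos. It read 49.5, 59.2 and 71.2 TPM in control FGOs and 45.2, 75.9 and 81.2 TPM in K36M FGOs, with overlapping ranges. Control embryos ranged from 5.54 to 90.9 TPM with a median of 30.8 TPM, and K36M embryos from 0 to 96.1 TPM with a median of 21.5 TPM. In each genotype 1 embryo lay above all FGO libraries and the rest below them. The stage difference was -1.06 in controls (SE 1.02, limma adjusted p = 0.480) and -2.38 in K36M (SE 1.0, adjusted p = 0.0779), and the latter passed without K36M embryo replicate 4, the embryo with 96.1 TPM (adjusted p = 0.0286), and with array weights (adjusted p = 0.00607). Orai1 held 95.8% to 98.1% of the TPM of the 3 Orai genes in control FGOs and 21.1% to 99.1% in control embryos, where Orai3 averaged 12.1 TPM and Orai2 6.23 TPM.

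**Figure D2:**
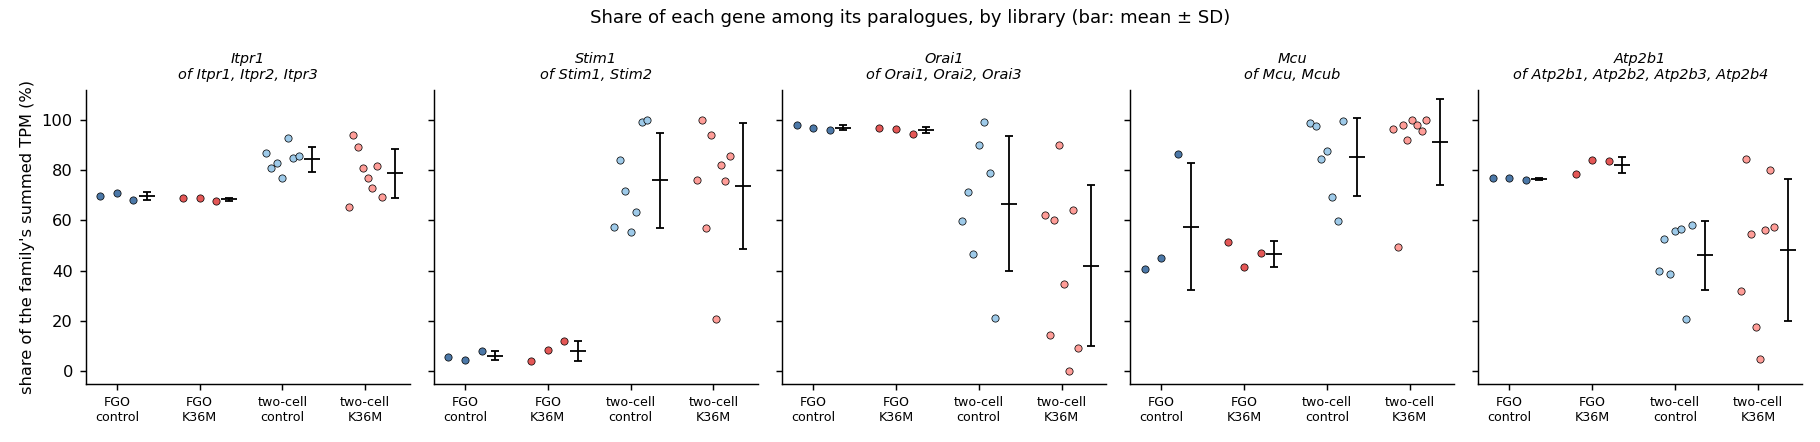
Share of Itpr1, Stim1, Orai1, Mcu and Atp2b1 in the summed TPM of their paralogues (y axis, percent), in every library of the 4 groups (x axis), with the mean ± SD beside the points. Stim1 holds 4.58% to 8.08% in control FGOs and 55.4% to 100% in control two-cell embryos. The Itpr1 share rises less in controls, from a mean of 69.6% to 84.3%. In K36M its range in embryos, 65.1% to 94.1%, encloses that in FGOs.

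Atp2a2, the pump that refills the endoplasmic reticulum, gave no call in any comparison and had the smallest spread of the 10 between control FGO libraries and between embryos of each genotype, relative to the mean. Its control FGO libraries read 381, 379.5 and 377 TPM and its K36M FGO libraries 391, 333 and 335 TPM, with overlapping ranges. Control two-cell embryos ranged from 371 to 514 TPM with a median of 463 TPM, and K36M embryos from 304 to 527 TPM with a median of 435 TPM. The embryos' ranges overlapped almost fully. The genotype difference in embryos was -0.13 (SE 0.18, 95% interval -0.51 to 0.24) and the stage difference in controls 0.28 (SE 0.18, limma adjusted p = 0.278), which turned to -0.04 under median-of-ratios scaling. The lowest share of Atp2a2 in the TPM of the 3 SERCA genes was 94.9%.

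Atp2b1, the plasma membrane pump, had the lowest adjusted p of the 10 between stages. It read 129, 117 and 130.2 TPM in control FGOs and 123, 157 and 132 TPM in K36M FGOs, with overlapping ranges. Control embryos ranged from 5.23 to 44.7 TPM with a median of 21.7 TPM, and K36M embryos from 2.96 to 31.9 TPM with a median of 13.1 TPM. Every embryo lay far below every FGO library. It fell in both genotypes, with a log2 difference of -2.82 in controls (SE 0.63, 7.06-fold lower on the TPM + 1 scale, limma adjusted p = 0.00164) and -3.31 in K36M (SE 0.62, 9.93-fold lower, adjusted p = 0.000247), and it was called in all 31 and all 32 alternatives. The genotype ranges overlapped in both stages, with a difference of 0.12 (SE 0.11) in FGOs and -0.37 (SE 0.62) in embryos. With 1 library left out these ranged from 0.024 to 0.20 and from -0.62 to -0.11. The related pump genes did not pass: Atp2b4 differed by -1.27 (adjusted p = 0.321) and Atp2b3 by -1.03 (adjusted p = 0.385) in controls.

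Camk2g, the kinase that carries the signal to the cell cycle, also fell in both genotypes. It read 422, 404 and 400.3 TPM in control FGOs and 393, 376 and 362 TPM in K36M FGOs, and these groups did not overlap (difference -0.12, SE 0.069, limma adjusted p = 0.580). Control embryos ranged from 103 to 284 TPM with a median of 163 TPM, and K36M embryos from 76.2 to 235 TPM with a median of 170.2 TPM. Every embryo lay below every FGO library. Camk2g differed by -1.23 in controls (SE 0.34, 2.35-fold lower on the TPM + 1 scale, limma adjusted p = 0.00814) and by -1.31 in K36M (SE 0.33, 2.47-fold lower, adjusted p = 0.00408), and both calls were kept in all alternatives. It remained above 94.1% of all genes in K36M embryos and made up at least 94.6% of the TPM of the 4 Camk2 genes in every library used.

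Mcu, the pore of the mitochondrial uniporter, did not differ past the threshold in any comparison. It read 127, 156 and 141 TPM in control FGOs and 163, 129.6 and 136 TPM in K36M FGOs, with overlapping ranges. Control embryos ranged from 29.6 to 156 TPM with a median of 77.1 TPM, and K36M embryos from 32.6 to 239 TPM with a median of 110.2 TPM. On the log2 scale it was the 1 gene of the 10 with a higher mean in K36M than in control embryos, by 0.41 (SE 0.45, limma adjusted p = 0.793). That value ranged from 0.18 to 0.64 with 1 library left out and was 0.13 with control two-cell replicate 4 included, and under quantile normalization Stim1 was higher too, by 0.017. Mcub, a subunit that dampens the uniporter, fell from 132 ± 95.3 TPM to 16.1 ± 24.4 TPM in controls (log2 difference -3.57, adjusted p = 0.020) and from 164 ± 17.2 TPM to 7.86 ± 11.1 TPM in K36M (adjusted p = 0.000983). One control FGO library stood at 22.0 TPM for Mcub, which makes the control mean uncertain.

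Taken as a group, the genes gave no call between genotypes. In FGOs 0 of 10 passed, with adjusted p of 0.428 to 0.977, where 0.00726% of the 13775 genes tested were called; 2 of 10 had an unadjusted p under 0.05 and 10.5% of all genes did. The FGO ranges did not overlap for 4 of 10 (Itpr1, Trpm7 and Camk2g lower, Cacna1h higher in K36M), and for 15.6% of all genes (8.17% lower, 7.46% higher). The maternal marker sum was also lower in each K36M FGO library, and its part in these differences was not tested. In embryos they overlapped for all 10, and did not for 0.115% of all genes. In two-cell embryos 0 of 10 passed, with adjusted p of 0.589 to 0.901, and 0 of 17362 genes did; 2 of 10 and 7.71% of all genes had an unadjusted p under 0.05, and 7.42% an exact permutation p under 0.05.

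Of the 10, 9 had a lower log2 mean in K36M embryos, but so did 63.8% of all genes. The median over the 10 was -0.45 and that over all genes -0.26. Under quantile normalization 8 of 10 and 52.0% of all genes were lower, with medians of -0.16 and -0.04, and under median-of-ratios scaling 9 of 10 and 59.5% were, with medians of -0.36 and -0.17. The interaction of genotype and stage called 0 of 10 and 0 of 17358 genes. An unadjusted p under 0.05 was seen for 0 of 10 and 1.15% of all genes.

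**Figure D3:**
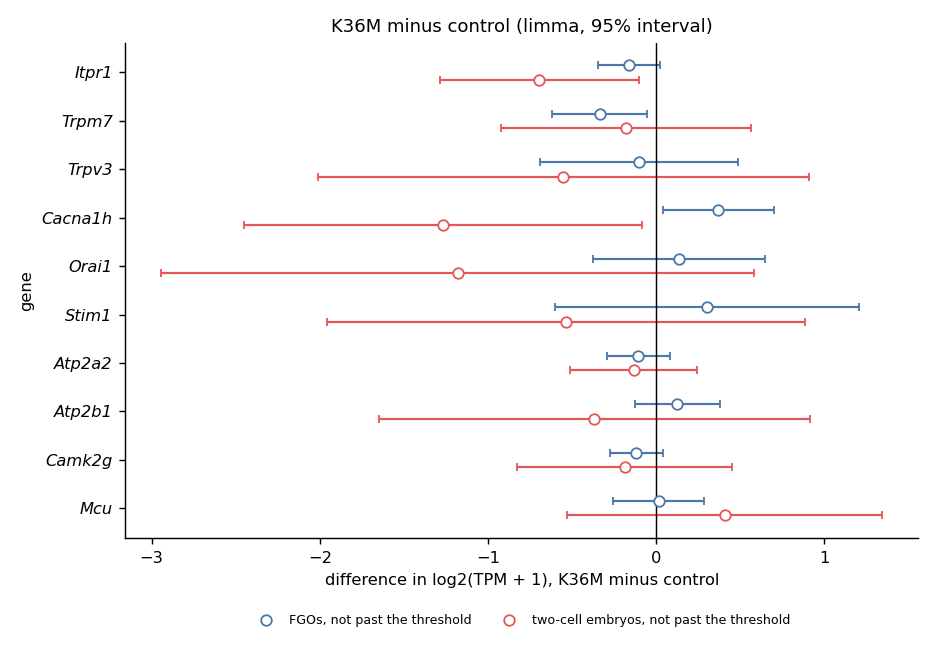
Difference in log2(TPM + 1) between K36M and control (x axis) for each gene (y axis) in FGOs and two-cell embryos, with 95% intervals from limma; open points did not pass the threshold. All 20 points are open, and the intervals in embryos, such as -1.29 to -0.10 for Itpr1, are wider than those in FGOs.

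Between stages, 3 of 10 genes were called in controls, all lower in embryos (Atp2b1, Trpv3 and Camk2g), where 26.6% of the 17358 genes tested were called and 13.2% were called lower. In K36M 4 of 10 were called lower (the same 3 and Cacna1h), where 29.3% of all genes were called and 18.6% lower. Atp2b1, Trpv3 and Camk2g were called lower in both, as were 11.3% of all genes. None of the 10 was called higher, against 13.4% of all genes in controls and 10.8% in K36M. Ranges did not overlap between stages for 4 of 10 genes in controls and 5 of 10 in K36M, and for 32.3% and 26.2% of all genes. The 2 stage comparisons have separate libraries but share 1 estimate of the spread. With array weights 5 of 10 were called in controls, which added Stim1 as higher and Mcu as lower, and 6 of 10 in K36M, which added Itpr1 and Orai1 as lower, but that fit called 56.1% and 49.1% of all genes. The share of all called genes that were lower in embryos moved under median-of-ratios scaling from 49.7% to 61.4% in controls and from 63.4% to 68.4% in K36M. That scaling moved the median of all genes by more than 0.1, to -0.19 in controls and -0.32 in K36M, so the falls stand relative to it.

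**Figure D4:**
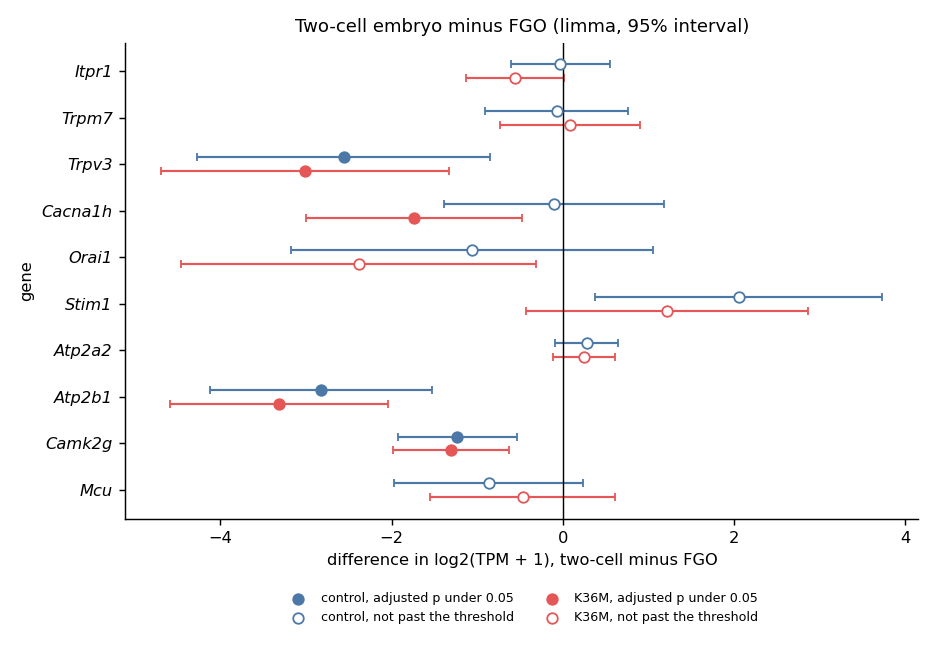
Difference in log2(TPM + 1) between two-cell embryos and FGOs (x axis) for each gene (y axis) in control and K36M, with 95% intervals from limma; filled points passed the adjusted threshold. Atp2b1, Trpv3 and Camk2g are filled on the left in both genotypes, Cacna1h in K36M alone, and Stim1 lies to the right with an adjusted p of 0.0641 in controls.

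The wider calcium pathway, 154 further genes in 7 lists, was read beside them. Between genotypes 0 of 115 tested passed in FGOs (12 with an unadjusted p under 0.05) and 0 of 131 in embryos (9). Between stages, 13 rose and 22 fell of 131 tested in controls, or 26.7%, and 14 rose and 28 fell in K36M, or 32.1%, both close to the shares over all genes. List counts that follow are for controls, with those for K36M after them, and stand beside 13.4% of all genes called higher and 13.2% lower in controls, and 10.8% and 18.6% in K36M. The values of named genes are means in control FGOs and control two-cell embryos, with log2 differences and limma adjusted p. In K36M they were called as well, except for P2rx7 (1.12, adjusted p = 0.349), Atp2a1 (2.01, adjusted p = 0.113) and Calr3 (-1.39, adjusted p = 0.222).

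Among 22 tested genes of store release, 3 rose and 6 fell (K36M 3 and 6). Plcd4, a phospholipase, rose from 0.816 to 66.1 TPM (5.05, adjusted p = 2.45e-05) and Ryr1, the ryanodine receptor of skeletal muscle, from 0.164 to 5.81 TPM (2.32, adjusted p = 0.00977). Itprip, an interactor of the inositol trisphosphate receptor, fell from 42.6 to 2.53 TPM (-4.16, adjusted p = 0.00131) and Plce1, another phospholipase, from 101 to 8.35 TPM (-3.66, adjusted p = 0.000878). Phospholipase genes thus moved in both directions.

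Among 28 tested genes of calcium entry, 2 rose and 3 fell (K36M 1 and 4). Cacnb1, a regulatory subunit of voltage-gated channels, rose from 0.136 to 33.9 TPM (4.89, adjusted p = 5.9e-05) and P2rx7, an ATP-gated channel listed at 0 in the 3 control FGO libraries, to 6.56 TPM (adjusted p = 0.0246). Stimate, a promoter of STIM activation, fell from 7.0 to 1.68 TPM (-1.89, adjusted p = 0.0418), beside Stim2. Among 12 tested pumps and exchangers, 1 rose and 2 fell (K36M 0 and 3): Atp2a1, the SERCA of fast muscle, went from 0.00948 to 8.84 TPM (2.63, adjusted p = 0.0431), Atp2c2 from 138 to 5.86 TPM (-5.3, adjusted p = 0.000173) and Atp2c1 from 346 to 105 TPM (-1.82, adjusted p = 0.00105), the last 2 being the Golgi pumps for calcium and manganese.

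Of 14 tested mitochondrial calcium genes 1 rose and 4 fell (K36M 1 and 4). Vdac1, a channel of the outer membrane, rose from 19.7 to 89.9 TPM (2.02, adjusted p = 0.000855), whereas its relative Vdac2 fell from 145 to 27.2 TPM (-2.59, adjusted p = 0.0284). Of 20 tested calmodulin kinase and calcineurin genes 2 rose, Calm2, one of the calmodulin genes, from 752 to 1725 TPM (1.05, adjusted p = 0.014) and Prkcd, a protein kinase C, from 36.6 to 116 TPM (1.44, adjusted p = 0.0164), and 0 fell. In K36M 2 genes of this list rose and 3 fell.

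Of 17 tested calcium buffers and chaperones of the endoplasmic reticulum 3 rose and 1 fell (K36M 6 and 0). Hspa5 (BiP), the main chaperone of that compartment, rose from 382 ± 28 to 1199 ± 329 TPM (1.59, adjusted p = 1.93e-06) and Rcn3 from 1.67 to 50.6 TPM (3.73, adjusted p = 0.0263), while Calr3, a calreticulin of germ cells, fell from 118 to 15.3 TPM (-3.46, adjusted p = 0.00337). Of 18 tested genes of meiotic exit and cortical granules 1 rose and 6 fell (K36M 1 and 8). Cdc20, an activator of the anaphase-promoting complex, rose from 72.8 to 252 TPM (1.59, adjusted p = 0.0147), and Mos, the kinase that holds the metaphase arrest, fell from 301 to 11.6 TPM (-5.65, adjusted p = 0.00121). Gja4, the gap junction protein between oocyte and granulosa cells, fell from 362 to 15.5 TPM (-4.99, adjusted p = 0.00109).

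For each of the 10 genes the other gene with the most similar pattern was sought, by the smallest root mean square difference between the 4 centred group means of log2(TPM + 1), over 21 libraries. The closest was Phf20l1 for Atp2a2 (0.00358), followed by Lama1 for Camk2g (0.0138), Nat10 for Mcu (0.0142), Pacs1 for Itpr1 (0.0169) and D4Ertd617e for Trpm7 (0.0206). Sec24b was closest to Atp2b1 (0.0232), Cd55 to Trpv3 (0.0259), Cyrib to Cacna1h (0.0316), H4c8 to Stim1 (0.0339) and Gm3286 to Orai1 (0.035). With 4 points and this many genes, a close match can be had for almost any pattern. The likeness is one of log2 means and need not hold for mean TPM: Pacs1 averaged 45.4 TPM in control FGOs, 41.3 TPM in K36M FGOs, 60.4 TPM in control and 34.5 TPM in K36M embryos.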

How the data were processed

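The 10 genes and all gene lists were chosen with earlier results of these data known. RNA was measured in 6 FGO libraries and 16 single embryos, of which 15 were used, grouped by their labels. The authors trimmed reads with Trim Galore!, mapped them to mm10 with Hisat2, used BEDTools to take out ribosomal RNA and featureCounts to count genes, and deposited TPM values, which sum to 1000000 in every library. The annotation, gene lengths and strand setting were not given in the sources used here. No count test was run, since TPM holds no counts and no depth.

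Differences in log2(TPM + 1) were tested with limma (version 3.58.1, R 4.3.3, moderated with a trend in the variance) after genes below a mean of 1 TPM in the fitted libraries were dropped. P-values were adjusted by Benjamini-Hochberg, and the threshold was 0.05. Genotypes were compared within each stage, and 1 model over 21 libraries gave both stage comparisons and their difference. Single genes were also compared by a two-sided exact permutation test (scipy 1.17.1), in embryos for every gene tested. The script for limma was first tested on simulated data of known change. Python 3.11.15, numpy 2.4.6, pandas 2.3.3 and matplotlib 3.10.9 were also used.

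Named genes were the 10 genes, their closest match by group means, and per pathway list up to 2 genes per direction with the largest difference among those past the threshold between stages in controls. Paralogue families were listed after the data were seen. Locations and promoter windows came from RefSeq tables of GRCm38.p6, the assembly of mm10. Locations matched for 10 genes and windows for 6, without Itpr1, Atp2a2, Camk2g and Cacna1h.

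Alternatives were a pseudocount of 0.1, every gene above 0, a minimum mean of 5 TPM, quantile or median-of-ratios scaling, a fit without the variance trend or with array weights, a block for the replicate number, a fit of the compared groups alone, control two-cell replicate 4 included, and each library left out in turn. Leaving out both K36M embryos with the fewest detected genes was chosen after seeing the data.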

Additional observations from a re-analysis of the deposited data

Results flagged for a closer look

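Each gene's highest and lowest embryo were compared in TPM with the rest of their group, in 20 comparisons. By Dixon's 95% limit, 4 values from 3 embryos stood apart. That limit assumes normally distributed values, and embryo TPM values were skewed, so its nominal rate of 1 in 20 need not hold. Groups of 3 FGO libraries are too small for this comparison. Orai1 was at 90.9 TPM in control two-cell replicate 2, where the next control embryo had 37.2 TPM. Orai1 was at 96.1 TPM in K36M two-cell replicate 4, where the next had 36.7 TPM. The same embryo had the highest Trpv3 of its group, 6.28 TPM, with the next at 2.78 TPM. Stim1 was at 85.02 TPM in K36M two-cell replicate 2, where the next had 17.3 TPM, and that embryo had 10894 genes above 0, the fewest of all.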

How the results depend on the processing

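Atp2b1 and Camk2g were called lower in embryos in both genotypes under all alternatives, and Trpv3 in K36M. The genotype comparisons called 0 of the 10 genes under every alternative. Calls over all genes depended on the fit. Between FGO genotypes 1 gene was called, 0 with a pseudocount of 0.1, with every gene above 0, without the variance trend and with the block, and 0 to 300.0 when 1 library was left out, 300.0 being without K36M replicate 1. Between embryos 0 genes were called, 5 without the trend, 1 with array weights, 1 without the 2 K36M embryos with the fewest detected genes, and 0 to 1 when 1 library was left out. Between stages 4615 genes were called in controls and 9730.0 with array weights, with 2844 to 4930.0 when 1 library was left out. The lower counts, 2844, 2872 and 2877, came without control FGO replicates 1, 2 and 3, and left 2 control FGO libraries. In K36M 5094 genes were called, and 8527 with array weights. Of the 10 genes, 3 were called between stages in controls and 4 in K36M. With array weights 5 were called in controls (56.1% of all genes) and 6 in K36M (49.1%). Median-of-ratios scaling called 5 in K36M (31.7%), and quantile normalization 4 in controls (30.2%). With only the compared groups fitted, 4 were called in controls (30.5%) and 3 in K36M (25.3%). The interaction called 0 genes, 13 with every gene above 0, 1 without the trend, 3 with array weights and 0 to 3 when 1 library was left out. The causes were not tested.

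Some log2 differences, none past the threshold, changed sign here or with the block described below. Not all began near 0: Stim1 between embryos was -0.54, the Trpv3 interaction -0.45 and Orai1 between stages in controls -1.06. Between FGO genotypes Mcu became -0.0075 with quantile normalization and -0.014 with array weights. Between embryos Stim1 became 0.017 with quantile normalization and Camk2g 0.037 with array weights. Under median-of-ratios scaling the stage difference became -0.044 for Atp2a2 in controls and -0.084 for Trpm7 in K36M, and the interaction 0.12 for Atp2a2 and 0.080 for Camk2g. The interaction became 0.067 for Trpv3 with quantile normalization, 0.17 for Camk2g with array weights and 0.065 for Atp2a2 with control two-cell replicate 4. Without both K36M embryos with the fewest detected genes, Trpm7 became -0.10 between stages in K36M and -0.030 in the interaction, and Camk2g 0.069 in the interaction.

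With 1 library left out, log2 differences between FGO genotypes ranged from -0.23 to 0.16 for Trpv3, -0.017 to 0.40 for Orai1, -0.017 to 0.66 for Stim1 and -0.086 to 0.089 for Mcu, and that of Trpm7 between embryos from -0.30 to 0.075. Between stages they ranged in controls from -0.072 to 0.036 for Itpr1, -0.14 to 0.046 for Trpm7 and -0.26 to 0.015 for Cacna1h, and in K36M from -0.038 to 0.34 for Trpm7. The interaction ranged from -0.080 to 0.047 for Atp2a2 and -0.19 to 0.070 for Camk2g. Under median-of-ratios scaling the levels of 10 gene and FGO group pairs moved by more than 1 SD.

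Replicate numbers are shared between the genotypes, but the labels do not say that they mark a shared animal or day. Deviations of same-numbered libraries correlated at 0.0145 to 0.101 in FGOs and -0.101 to 0.0968 in embryos, and 3 of 10 control libraries correlated best with their own number. With the block, 3887 genes were called between stages in controls and 4199 in K36M, the stage difference in controls became 0.035 for Itpr1, 0.067 for Cacna1h and 0.075 for Orai1, that of Trpm7 in K36M -0.16, the control call of Trpv3 was lost (adjusted p = 0.0688) and Stim1 was called in controls (adjusted p = 0.0202).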

Other observations

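Control two-cell replicate 4, which the study set aside, differed from the 7 other control embryos in several of the 10 genes. Itpr1 was at 59.03 TPM there, below the lowest of the 7 (102.5 TPM), Trpm7 at 52.4 TPM (lowest of the 7, 80.7 TPM) and Atp2a2 at 272 TPM (lowest of the 7, 371 TPM). Mcu was at 360.5 TPM, above the highest of the 7 (156 TPM), and Atp2b1 at 89.5 TPM (highest of the 7, 44.7 TPM), between the embryos and the FGO libraries. Its maternal markers summed to 6733 TPM (highest of the 7, 4000 TPM) and its zygotic markers to 269 TPM (lowest of the 7, 368.5 TPM), and H3f3b was at 57.5 TPM (lowest of the 7, 301 TPM).

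Among the calcium buffers of the endoplasmic reticulum, Hspa5 was at 1199 ± 329 TPM in control (SD, n = 7) and 1833 ± 218 TPM in K36M two-cell embryos (SD, n = 8), a log2 difference of 0.66 (SE 0.17) with an unadjusted p of 0.000752 and a limma adjusted p of 0.375. Calr3 was at 15.3 ± 12.5 TPM in control and 44.5 ± 39.1 TPM in K36M embryos, a difference of 1.61 (SE 0.73, limma adjusted p = 0.609), and at 118 ± 11.2 TPM in control and 86.9 ± 16.1 TPM in K36M FGOs (n = 3 each), a difference of -0.45 (SE 0.15, adjusted p = 0.396). The interaction of genotype and stage for Calr3 was 2.07 (SE 1.17, unadjusted p = 0.091).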
